A study of Mus musculus with 12 samples.

Results

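Periodate oxidation of 50 ng of total RNA from mouse testis was compared with the unoxidized RNA of the same input, using the miRNA abundances, the abundances of single piRNA sequences and the spike-in reads of 4 of the 12 libraries in the series. The tested libraries were the 2 technical replicates made from 50 ng of RNA after oxidation with NaIO4, and they were set against the 2 technical replicates made from 50 ng before oxidation. The RNA in both groups came from male C57BL/6 mice aged 4 months, and both groups were built by the library method labelled 10ng-seq from small RNAs of 17 to 40 nt with 2.5e-08 µl of spike-in. The remaining 8 libraries hold the same comparison at 10 and 100 ng. They entered only the estimate of the spread and the tests of whether a change at 50 ng differed from the change at those inputs. The labels do not say how many mice gave the RNA, and the replicates were technical, so every p-value measures the spread between libraries and not between animals.

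Sodium periodate opens the terminal ribose of an RNA when its 2' and 3' hydroxyl groups are both free, and the oxidized end can no longer be ligated to a sequencing adapter. A 2'-O-methyl group on the last nucleotide protects the end. In animals the methyltransferase HENMT1 places this group on piRNAs, which guide PIWI proteins against transposons and other transcripts in male germ cells, whereas most mammalian miRNAs end in free hydroxyls. In the adult mouse testis the most abundant piRNAs come from long intergenic transcripts made at the pachytene stage. Such piRNAs mostly begin with U, written T in the deposited sequences.

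Abundances were deposited as RPM, reads scaled to a common total, and the size of 1 read in RPM gave denominators of 2866316 and 2246199 reads after oxidation, against 2578922 and 3347735 reads before oxidation. A feature was tested when its mean over all 12 libraries was at least 5 RPM. It was called lower or higher when the Benjamini-Hochberg adjusted p of limma on log2(RPM + 1) was below 0.05. Fold changes on that scale are smaller than the change of the level itself for features near 0. The piRNA table held 919539 and 918289 RPM after oxidation, against 803721 and 806292 RPM before oxidation.

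The sequences shown first are mature miRNAs that carry the main contrast, printed 5' to 3' with the seed (bases 2 to 8) in capitals. The first 6 were among the most abundant miRNAs before oxidation, and miR-100-5p and miR-99a-5p share the seed ACCCGUA. The last 4 were not called lower. Sequences and positions are from RefSeq on GRCm38.p6, where 34 of the 41 miRNAs described here had an entry that could be used.
miR-741-3p: uGAGAGAUgccauucuauguaga
miR-10b-5p: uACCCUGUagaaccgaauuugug
miR-100-5p: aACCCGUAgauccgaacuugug
miR-99a-5p: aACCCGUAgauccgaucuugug
miR-470-5p: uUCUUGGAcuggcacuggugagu
let-7g-5p: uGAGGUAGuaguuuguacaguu
miR-468-5p: gACUGAUGuacugauaagaaacucagu
miR-3471: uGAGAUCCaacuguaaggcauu
miR-3470b: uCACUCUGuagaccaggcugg
miR-7210-3p: uUAUAUGUaaguaacaauguggcu
The genes lie at chrX:66796809-66796831 (minus strand) for miR-741-3p, chr2:74726074-74726096 (plus) for miR-10b-5p, chr9:41531437-41531458 (plus) for miR-100-5p and chr6:81896629-81896655 (minus) for miR-468-5p. At 27 nt the mature miR-468-5p is longer than the 21 to 24 nt of the other 9.

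The miRNAs were almost completely lost. Their summed abundance was 218 and 305 RPM after oxidation, against 130591 and 128125 RPM before oxidation, which is 625 and 684 reads against 336783 and 428930 reads. On the log2 scale the sum fell by 8.97 (SE 0.21, limma adjusted p = 1.41e-09), a 502-fold fall of the geometric mean. The 2 groups were far apart and each pair of replicates lay close together. With 2 libraries a side the exact permutation test cannot go below p = 0.33, the value it gave here. The number of miRNA names with a read was 66 and 61 after oxidation, against 342 and 353 before oxidation.

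Of 141 miRNAs tested, 135 were called lower (95.7% of those tested) and 1 was called higher (0.709%). The 2 groups did not overlap for any of the 135. The median log2 fold change over the 141 was -6.22, and 75 of them had no read in either library after oxidation. The number called depended on the scaling. The number called lower was 52 after centring on library medians, 9 by edgeR with TMM and 0 by DESeq2, but 136 by edgeR without TMM. The median log2 fold change over the 141 was 0.0375 after centring, -6.88 by edgeR with TMM and 1.26 by DESeq2. Centring, TMM and DESeq2 take their scale from the tested miRNAs themselves, so they can absorb a fall that most of them share. By edgeR the median was -6.88 with TMM and -9.50 without it, so with TMM most of the fall remained. Why few miRNAs were called lower with TMM was not tested. Scaled to methylated spike-ins, 140 were called, with 0 called higher, and the median was -7.67.

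miR-741-3p, an X-linked testis miRNA and the most abundant miRNA before oxidation, had 17.4 and 22.7 RPM after oxidation, against 29530 and 29442 RPM before oxidation. Its log2 fold change was -10.46 (SE 0.27, adjusted p = 4.44e-10). It was still among the 10 most abundant miRNAs after oxidation, with 50 and 51 reads. miR-470-5p, another X-linked miRNA, had the lowest fold change of all, with 3.14 and 0.89 RPM after oxidation, against 5123 and 5252 RPM before oxidation (log2 fold change -10.86, SE 0.41). The whole X-linked testis cluster, miRNAs expressed mainly in male germ cells, summed to 26.2 and 36.1 RPM after oxidation, against 46559 and 46664 RPM before oxidation, and 24 of its 24 tested members were called lower. That cluster supplied 36.03% of miRNA RPM before oxidation.

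The miR-10 and miR-125 family, found in many tissues, was called lower throughout. miR-10b-5p had 7.33 and 7.12 RPM after oxidation, against 12175 and 11811 RPM before oxidation (log2 fold change -10.51, SE 0.22). miR-100-5p had 3.84 and 4.01 RPM after oxidation, against 8450 and 7948 RPM before oxidation (log2 fold change -10.70, SE 0.29). All 7 tested members of the family were called lower, and the median log2 fold change of -10.02 was the lowest of the lists. The let-7 family, regulators of differentiation, summed to 10.5 and 7.12 RPM after oxidation, against 12821 and 12127 RPM before oxidation, with 9 of 9 tested members lower. let-7g-5p was left with 1 and 3 reads.

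The miRNAs of meiotic and postmeiotic germ cells in the miR-34 and miR-449 family had 2.09 and 0.89 RPM in sum after oxidation, against 2038 and 1944 RPM before oxidation, and 4 of 4 tested members were called lower. miR-34c-5p, the most abundant of them, kept 5 and 1 reads. The miR-183, miR-96 and miR-182 cluster, known from germ and sensory cells, had 0.698 and 0 RPM after oxidation, against 185 and 188 RPM before oxidation. The miR-15 and miR-16 family, which restrains the cell cycle, and the imprinted Dlk1-Dio3 cluster had no read after oxidation. miR-16-5p had 108 and 112 RPM before oxidation, and measured against a floor of 3 reads over both libraries after oxidation (0.587 RPM) it was at least 187-fold lower. miR-127-3p of the Dlk1-Dio3 cluster, with 136 and 137 RPM before oxidation, was at least 233-fold lower on the same floor.

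miRNAs of cells other than germ cells were called lower as well. The list of Sertoli and other gonadal somatic miRNAs had 4.54 and 2.67 RPM in sum after oxidation, against 1033 and 1019 RPM before oxidation, with 11 of 11 tested members lower. Vessel and muscle miRNAs, led by miR-143-3p with 10.8 and 11.6 RPM after oxidation, against 12098 and 12042 RPM before oxidation, were lower in 4 of 4 tested members. miRNAs of blood cells were low before oxidation, at 4.65 and 2.39 RPM in sum, and had no read after it. Of 13 lists, 12 had a tested member, and in each of the 12 all tested members were called lower, beside 95.7% of all miRNAs tested. The groups differed in the oxidation of extracted RNA, so these lists do not compare cell numbers between them.

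**Figure D1:**
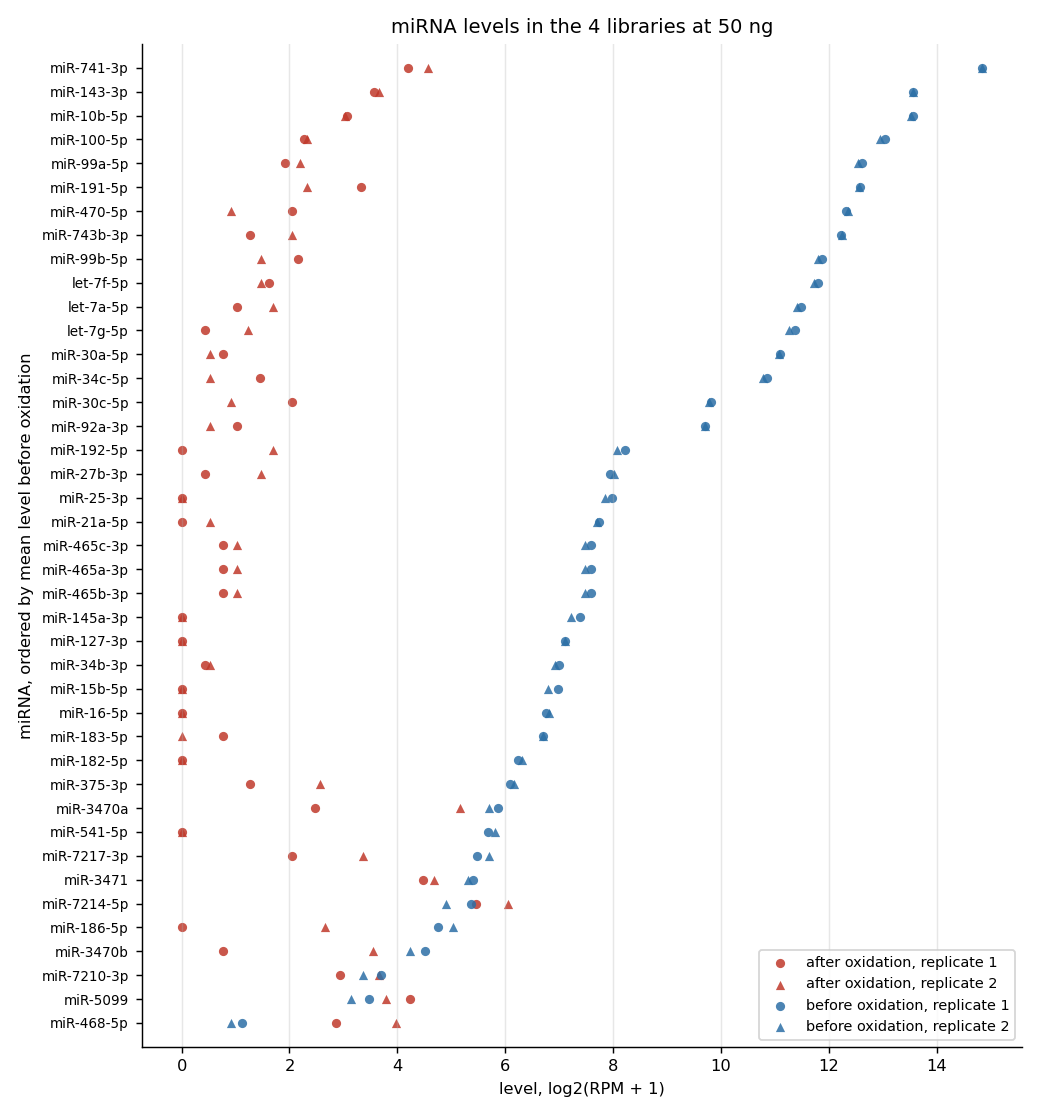
Levels of the 41 named miRNAs in the 4 libraries at 50 ng, as log2(RPM + 1), ordered by their mean before oxidation. Red symbols are the replicates after oxidation and blue symbols those before it, and most rows show the groups far apart, with miR-7214-5p, miR-5099 and miR-7210-3p among the low rows where they come together.

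The summed loss was larger among miRNAs that were abundant before oxidation. The 18 tested miRNAs with at least 1000 RPM before oxidation summed to 73.4 RPM after oxidation, against 111799 RPM before oxidation, a 1523-fold difference. For the 49 with 100 to 1000 RPM the sums were 18.4 RPM after oxidation and 14745 RPM before oxidation, an 803-fold difference. For the 73 with 5 to 100 RPM the sums were 142 RPM after oxidation and 2376 RPM before oxidation, a 16.7-fold difference, although 58 of the 73 had no read left. Most of the 142 RPM came from a few names, led by miR-7214-5p (54.4 RPM) and miR-3471 (22.9 RPM). With miR-3470a at 19.6 and miR-5099 at 15.4 RPM, that ratio does not describe the other names of the class. Among the 20 most abundant miRNAs before oxidation the fold ranged from 441 to 3800.

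A few names of low level made up much of what remained. The 6 tested miRNAs not called lower made up 44.0% and 45.9% of all miRNA RPM after oxidation, against 0.0968% and 0.0807% before oxidation. miR-7214-5p, the most abundant miRNA after oxidation, had 43.3 and 65.4 RPM after oxidation, against 40.3 and 28.97 RPM before oxidation (log2 fold change 0.62, SE 0.46, adjusted p = 0.215). miR-3471 had 21.3 and 24.5 RPM after oxidation, against 41.1 and 38.5 RPM before oxidation (adjusted p = 0.486). The groups did not overlap for either of these, and neither difference passed the test.

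miR-468-5p was the only miRNA called higher, with 6.28 and 14.7 RPM after oxidation, against 1.16 and 0.896 RPM before oxidation (log2 fold change 2.40, SE 0.68, adjusted p = 0.00752). Its values rest on 18 and 33 reads after oxidation and on 3 reads in each library before oxidation, and leaving out the second library after oxidation ended the call. The name passed the 5 RPM filter through libraries after oxidation, with means of 37.0 RPM at 10 ng and 3.76 RPM at 100 ng. Before oxidation those inputs had 1.26 and 1.69 RPM, so the filter favoured a rise. miR-5099 had 17.8 and 12.9 RPM after oxidation, against 10.1 and 7.77 RPM before oxidation (adjusted p = 0.447). miR-7210-3p had 6.63 and 11.6 RPM after oxidation, against 12.02 and 9.26 RPM before oxidation, and the groups overlapped. miR-3470b had 0.698 and 10.7 RPM after oxidation, against 21.7 and 17.9 RPM before oxidation (adjusted p = 0.0843), with the 2 replicates after oxidation far apart. miR-3470a was called lower, with 4.54 and 34.7 RPM after oxidation, against 57.4 and 51.1 RPM before oxidation.

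Some of these names share their sequence with entries of the piRNA table. The first 17 bases of miR-3470b, printed above, occur in 324 piRNA-table sequences of 17 to 40 nt, which summed to 56.9 and 42.7 RPM after oxidation, against 306 and 325 RPM before oxidation. Those of miR-3471 occur in 80 sequences, with 18.8 and 2.67 RPM after oxidation, against 78.7 and 81.0 RPM before oxidation. Those of miR-468-5p occur in 10 sequences, with 9.42 and 15.6 RPM after oxidation, against 5.43 and 4.78 RPM before oxidation. None of the piRNA-table sequences holds the first 17 bases of miR-741-3p, miR-10b-5p or miR-100-5p. For miR-468-5p these sequences were higher after oxidation, and for miR-3471 and miR-3470b they were lower. Their part in the values of the miRNA names was not tested.

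The spike-ins are 3 oligonucleotides (sp1, sp2 and sp3), each added with and without the protecting methyl group, per the names in the deposited table. Unmethylated spike-ins took 15 of 214323 and 12 of 218247 spike-in reads after oxidation, against 9973 of 45584 and 11641 of 52206 before oxidation. These are shares of 0.00700% (95% exact binomial interval 0.00392% to 0.0115%) and 0.00550% (0.00284% to 0.00960%) after oxidation, against 21.9% (21.5% to 22.3%) and 22.3% (21.9% to 22.7%) before oxidation. Intervals and floors cover counting error only.

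Each unmethylated oligonucleotide was nearly gone. sp1 had 0 and 1 reads after oxidation, against 1445 and 1732 before oxidation. sp2 had 0 and 9 reads after oxidation, against 1314 and 1574 before oxidation. sp3 had 15 and 2 reads after oxidation, against 7214 and 8335 before oxidation.

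All methylated oligonucleotides rose in number. sp2Me, which dominated every library, had 209247 and 213559 reads after oxidation, against 34285 and 38910 before oxidation. sp1Me had 1123 and 1576 reads after oxidation, against 96 and 125 before oxidation. sp3Me had 3938 and 3100 reads after oxidation, against 1230 and 1530 before oxidation. Relative to the RPM denominator, the mean of sp1Me after oxidation was 14.7 times its mean before oxidation. For sp2Me the factor was 6.75 and for sp3Me 2.95, so the 3 oligonucleotides did not rise by the same factor. The ratio of methylated to unmethylated reads was 14287 and 18186 after oxidation, against 3.57 and 3.48 before oxidation (log2 change 12.16, SE 0.24, limma adjusted p = 5.20e-10, exact permutation p = 0.33).

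**Figure D2:**
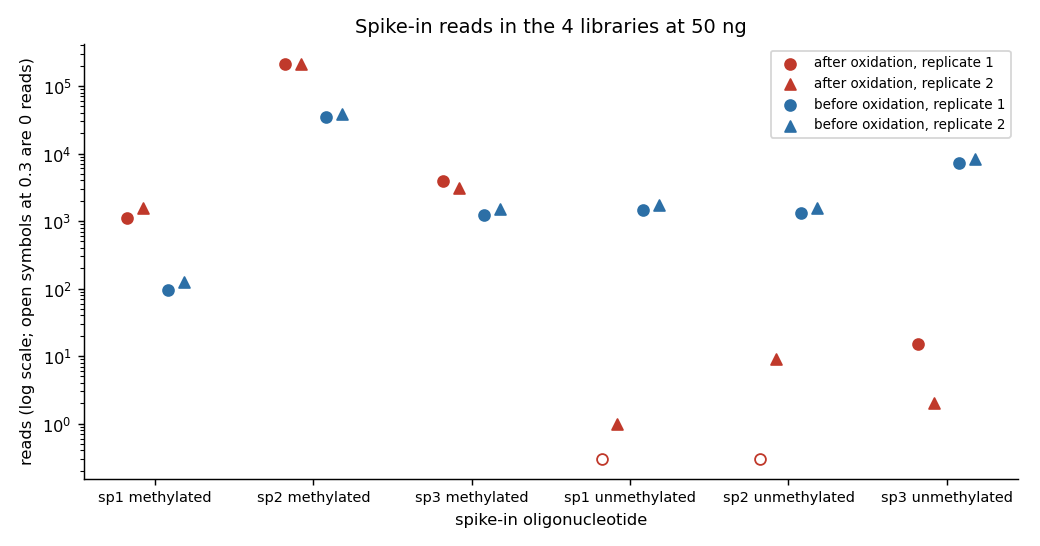
Reads of each spike-in oligonucleotide in the 4 libraries at 50 ng on a log axis, with libraries after oxidation (red) left of those before it (blue). Methylated oligonucleotides gained reads after oxidation, and unmethylated ones had between 0 and 15 reads there, against 1314 to 8335 before oxidation.

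The piRNA table took a larger share of the RPM denominator after oxidation. Its sum was higher by 0.19 on the log2 scale (SE 0.04, limma adjusted p = 0.00202). Among reads not assigned to miRNAs, the log2 change of its share was -0.01 (SE 0.04, adjusted p = 0.837). Per methylated spike-in read there were 12.3 and 9.45 piRNA reads after oxidation, against 58.2 and 66.5 before oxidation, a log2 change of -2.53 (SE 0.15, adjusted p = 6.74e-07). The direction of the piRNA total therefore depends on the scale. The value per methylated spike-in moved with the oligonucleotide used, with a log2 change of -3.62 on sp1Me and -1.37 on sp3Me.

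Fewer distinct piRNA sequences were seen after oxidation. They numbered 174699 and 167866 after oxidation, against 287333 and 323061 before oxidation, and 169084 and 167359, against 283340 and 287940, when each library was thinned to 2000000 piRNA reads. Sequences seen once were 9.46% and 9.56% of the distinct sequences after oxidation, against 38.8% and 35.3% before oxidation. Of 142329 sequences present in both libraries before oxidation, 38.1% were also in both after it. The replicates after oxidation resembled each other less: Pearson's r of log2(RPM + 1) over the tested sequences was 0.778 after oxidation and 0.930 before oxidation, as a description across sequences that share libraries and depth.

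The piRNA sequences printed here are those with a position on 1 chromosome, taken from the sense or antisense match of the whole sequence to transcripts of GENCODE M21 on GRCm38. They were picked after their values were seen, as the most abundant and most changed of the 2777 tested sequences (12.2%) that could be placed in this way. Capitals mark bases 1 and 10. The first 3 were abundant in both groups.
Gm21269, chr7:73824992-73825021 (plus): TatgtgaatTtcaactgttggctccacagg
Gm14244, chr2:127692460-127692490 (plus): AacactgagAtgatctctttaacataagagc
Gm10619, chr7:73809728-73809760 (minus): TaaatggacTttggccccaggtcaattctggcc
The next 4 fell after oxidation.
Tbl2, chr5:135162196-135162214 (plus): GccaggacaAagtaagctc
Gm906, chr13:50247745-50247763 (minus): CcaaacttgGtagatgaga
antisense to Gm14144, chr2:151264908-151264926 (plus): TagaagagaCagtagatac
Gm21269, chr7:73817804-73817833 (plus): TgacagaatGacagagggctatctatgctg
The last 3 rose after oxidation.
Gm21269, chr7:73820762-73820791 (plus): TaggactgcTtcatgactcctgatggcaga
4933440M02Rik, chr7:125332655-125332683 (minus): TacaaagttAtacgattctctgacgaaac
Gm21269, chr7:73825755-73825784 (plus): TaagaaagtAaattctttagaactctgaaa
Gm21269, Gm10619, 4933440M02Rik and Gm14144 are annotated as long intergenic noncoding RNAs and Gm14244 as an antisense RNA, and their sequences lie in exons. The Tbl2 sequence lies in the untranslated part of exon 7 and the Gm906 sequence in coding exon 4. The Gm906 sequence matched 4 positions and the Gm14144 sequence 2, all on the chromosome given, and 1 position of each is printed.

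Single piRNA sequences moved in both directions. Of 22726 tested, 781 were called lower (3.44%) and 1312 higher (5.77%), with a median log2 fold change of 0.20 and quartiles of -0.52 and 0.95. The 5695 of them under 5 RPM before oxidation passed the filter through other libraries, which favours rises. They held 635 of the higher calls and 3 of the lower, with a median of 1.24. The median was 0.14 at 5 to 10 RPM before oxidation and between -0.22 and -0.14 in the classes from 10 RPM up, where the limit favours falls. The spread behind these calls came from all 12 libraries, and the counts depend on it: without the 10 ng libraries 2203 were lower and 3868 higher, and with only the 4 libraries at 50 ng 1345 were lower and 2519 higher. Leaving out 1 library before oxidation at 50 ng left 254 lower and 264 or 287 higher, and leaving out the second library after oxidation left 467 and 387. Without 1 library before oxidation at 100 ng 517 or 519 were lower, and without 1 library after oxidation at 10 ng 2325 or 2326 were lower and 3809 or 3835 higher. Scaled to methylated spike-in reads, 16761 were lower and 65 higher.

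The most abundant placed piRNA sequences were not called. The first sequence of Gm21269 printed above had 5998 and 4915 RPM after oxidation, against 5522 and 5524 RPM before oxidation (log2 fold change -0.02, SE 0.09, adjusted p = 0.926). The sequence of Gm14244 had 4478 and 2860 RPM after oxidation, against 2489 and 2638 RPM before oxidation (log2 fold change 0.48, adjusted p = 0.112). Its groups did not overlap, but its replicates after oxidation were further from each other than the second of them was from either library before oxidation. The Gm10619 sequence had 2750 and 1722 RPM after oxidation, against 1468 and 1436 RPM before oxidation (adjusted p = 0.0919). Of the 17031 sequences with at least 5 RPM before oxidation, 778 were called lower and 677 higher. A limit set on the level before oxidation favours falls. With at least 5 RPM in both groups, 251 of 14471 were lower and 677 higher. Over all 22726 tested, 781 were lower (3.44%) and 1312 higher (5.77%).

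The largest falls reached complete loss. A 19-nt sequence with no transcript match had no read after oxidation, against 116 and 138 RPM before oxidation (log2 fold change -7.00, SE 0.39, adjusted p = 0.000142). A 37-nt sequence had 0 and 0.445 RPM after oxidation, against 148 and 130 RPM before oxidation (log2 fold change -6.86, SE 0.37). Both lengths lie outside the main range of mouse piRNAs. The Tbl2 sequence above had no read after oxidation, against 59.7 and 49.0 RPM before oxidation, at least 92.6-fold lower on the floor of 3 reads over both libraries. In all, 180 of the 781 lower sequences had no read in either library after oxidation.

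A fall was not confined to unusual lengths. The 30-nt Gm21269 sequence at chr7:73817804-73817833 had 3.49 and 5.79 RPM after oxidation, against 123 and 134 RPM before oxidation, a 27.7-fold difference of the means (adjusted p = 0.000338). In the opposite direction, the Gm21269 sequence at chr7:73820762-73820791 had 20.2 and 30.3 RPM after oxidation and no read before oxidation (adjusted p = 0.00238). Its log2 fold change was 4.09 at 10 ng and 2.37 at 100 ng. With no read before oxidation at 50 ng it passed the 5 RPM filter through other libraries, so the filter favoured this rise. The same transcript thus holds sequences that were lost, gained and kept, all of 30 nt and all beginning with T. A 30-nt sequence with no transcript match had the highest log2 fold change of those called with a mean of at least 10 RPM at 50 ng, with 187 and 283 RPM after oxidation, against 2.71 and 3.88 RPM before oxidation (log2 fold change 5.76, SE 0.58, adjusted p = 0.000939). It was under 5 RPM before oxidation, so the filter favoured this rise too.

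Sequences that share their 5' end tended to be called together. Among tested sequences of at least 26 nt, those that share their first 20 bases were taken as a family, since they may differ only in the position of the 3' end. For 464 lower sequences with a relative, 38.8% had another member called lower, beside 6.02% for the 11485 sequences that were not called. For 732 higher sequences, 36.5% had another member called higher, beside 8.93%. The median of the other members was -0.98 for lower sequences and 1.25 for higher ones, on the log2 scale. Members of a family overlap in sequence and are not independent, and 10 families held both a lower and a higher member.

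By length, the piRNA table lost its longest sequences and those of 19 nt, while most other short lengths rose. Of 24 lengths, 12 took a lower share of piRNA RPM after oxidation (50%) and 6 a higher share (25%). The other lengths called lower were 25 nt (log2 change -0.17), 26 nt (-0.0703) and 28 nt (-0.0666), and the calls at 26 and 28 nt were lost with only the 4 libraries at 50 ng (adjusted p = 0.0839 and 0.0905). The peak at 30 nt held 27.2% and 27.5% after oxidation, against 25.4% and 25.3% before oxidation (log2 change 0.11, SE 0.02, adjusted p = 0.000532). Summed over lengths, with no test of the sums, sequences of 29 to 32 nt, the usual size of piRNAs bound by MIWI, took 67.1% and 66.9% after oxidation, against 64.5% and 64.7% before oxidation. Those of 26 to 28 nt, the usual size of piRNAs bound by MILI, took 22.6% and 22.5% after oxidation, against 23.5% and 23.4% before oxidation.

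The long sequences fell most. Those of 34 nt took 0.157% and 0.144% after oxidation, against 0.402% and 0.412% before oxidation, a 2.70-fold difference. Those of 40 nt took 0.0112% and 0.0120% after oxidation, against 0.0996% and 0.1003% before oxidation, an 8.62-fold difference (log2 change -3.11, SE 0.28, adjusted p = 3.21e-05). Every length from 33 to 40 nt was called lower, and the groups did not overlap at any of them. Of 299 single sequences of 33 to 40 nt tested, 68 were called lower and 5 higher, which is 22.7% and 1.67% beside 3.44% and 5.77% of all sequences. Sequences nearly absent after oxidation reach the 5 RPM filter through libraries before it, so the filter favours these lower calls. The shares by length above carry no such filter.

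Among the short lengths, 17, 18, 20, 21 and 22 nt were called higher and 19 nt lower. Sequences of 17 nt took 0.503% and 0.514% after oxidation, against 0.297% and 0.279% before oxidation (log2 change 0.82, SE 0.13, adjusted p = 0.000870). Sequences of 19 nt took 0.476% and 0.482% after oxidation, against 1.05% and 1.00% before oxidation (log2 change -1.10, SE 0.07, adjusted p = 8.84e-06). The peak at 19 nt seen before oxidation was thus absent after it. Among sequences with a mean of at least 5 RPM the log2 change at 19 nt was 0.29. When each distinct sequence was counted once, whatever its RPM, the shares of 17, 18, 20, 21 and 22 nt were lower after oxidation (log2 change -0.52 at 17 nt) and those of 26, 27 and 28 nt were higher. Distinct 17-nt sequences numbered 787 and 800 after oxidation, against 1933 and 2125 before oxidation.

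**Figure D3:**
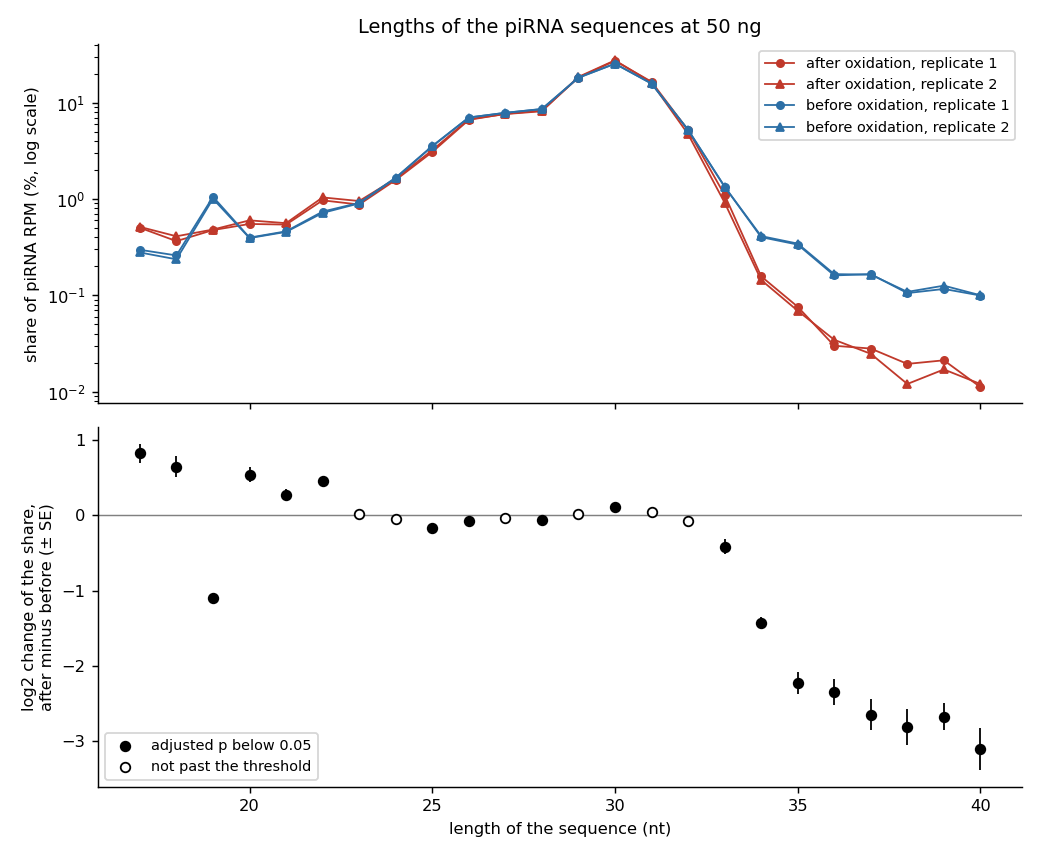
Share of piRNA RPM at each length in the 4 libraries at 50 ng on a log axis (top), and the log2 change of that share with its SE from limma (bottom). The share at 19 nt was 0.476% and 0.482% after oxidation against 1.05% and 1.00% before oxidation, and the lines part from 33 nt upward.

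The 19-nt sequences fell into separate parts by their first base. Those beginning with T summed to 3949 and 3855 RPM after oxidation, against 3608 and 3469 RPM before oxidation. Those beginning with another base summed to 426 and 572 RPM after oxidation, against 4866 and 4634 RPM before oxidation, a 9.52-fold difference. At 20 nt the sequences without T at the start had 514 and 768 RPM after oxidation, against 571 and 547 RPM before oxidation, with no such loss. The share of 19-nt RPM that begins with T was 90.3% and 87.1% after oxidation, against 42.6% and 42.8% before oxidation. This split was chosen after the values were seen and carries no test.

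Single 19-nt sequences showed the same division. Of the 43 tested that do not begin with T, 42 were called lower. These were 16 of 17 with A at position 10 and 26 of 26 without it, and the 26 had no read in either library after oxidation. Sequences absent after oxidation can reach the 5 RPM filter only through libraries before it, so the filter itself favours these calls. Of the 81 that begin with T, 22 were lower and 26 higher. Over all 22726 tested sequences 781 were lower (3.44%) and 1312 higher (5.77%). The Tbl2 and Gm906 sequences printed above begin with G and C and were called lower. Before oxidation 28.7% and 27.9% of the RPM of 19-nt sequences without a first T matched the sense strand of protein-coding transcripts, against 10.6% and 8.49% after oxidation, and 6.48% and 6.28% before oxidation matched annotated miRNA hairpins, against 0.491% and 1.09% after it.

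**Figure D4:**
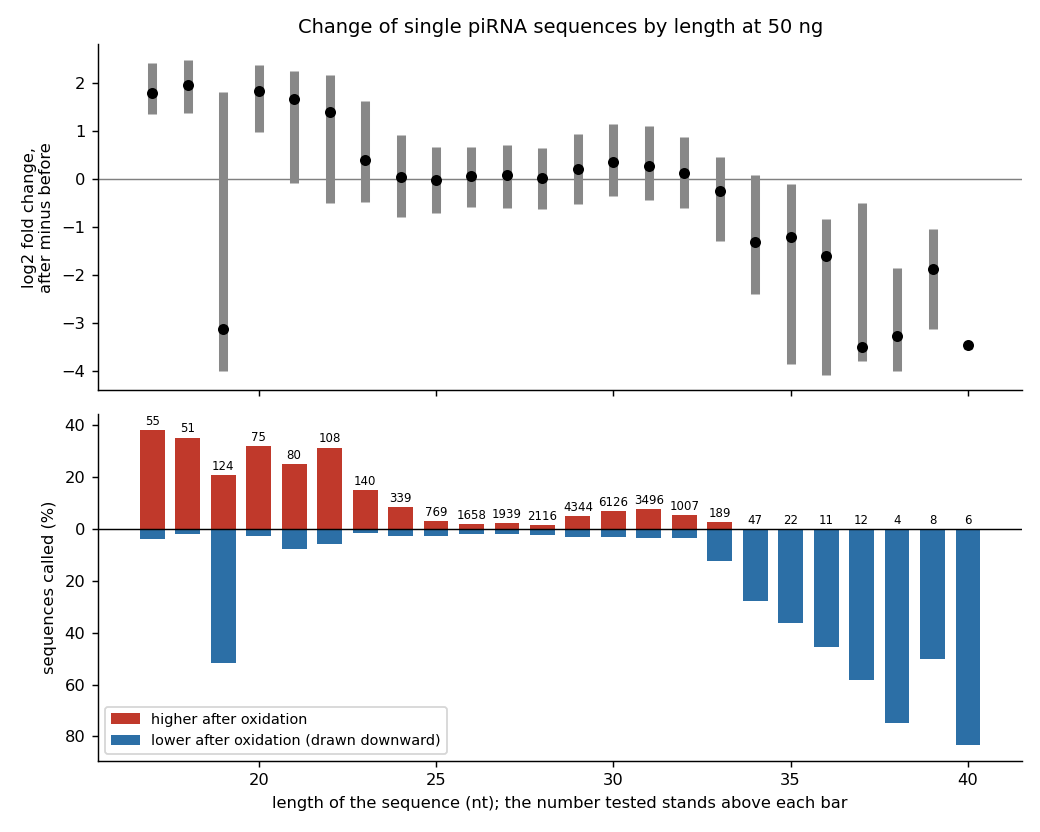
Tested piRNA sequences by length, with the median and middle 50% of their log2 fold changes (top) and the percent called higher (red, upward) or lower (blue, downward) after oxidation (bottom). At 19 nt 51.6% were called lower, and from 34 nt on none was called higher. The 5 RPM filter favours falls of sequences absent after oxidation and rises of those absent before it.

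Base composition shifted by small amounts. Of 29 base features, 16 took a lower share of piRNA RPM after oxidation (55.2%) and 6 a higher share (20.7%). T at position 1 made up 90.2% and 90.4% after oxidation, against 88.4% and 88.5% before oxidation (log2 change 0.03, SE 0.01, adjusted p = 0.0191, but 0.111 with only the 4 libraries at 50 ng). A, C and G at position 1 were each called lower, and G fell most, to 2.55% and 2.53% after oxidation, against 3.13% and 3.15% before oxidation. T at position 1 is the mark of primary piRNAs, and A at position 10 that of the secondary piRNAs made in the ping-pong cycle.

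A at position 10 was lower by a small amount, at 33.4% and 32.8% after oxidation, against 34.04% and 34.2% before oxidation (log2 change -0.04, SE 0.01, adjusted p = 0.0116, but 0.0881 with only the 4 libraries at 50 ng). T at position 10 was higher, at 25.7% and 27.3% after oxidation, against 23.4% and 23.3% before oxidation (log2 change 0.18, SE 0.03, adjusted p = 0.000481). At the 3' end, the base that carries the methyl group, a last C was higher at 37.7% and 38.5% after oxidation, against 35.996% and 36.007% before oxidation (log2 change 0.08, adjusted p = 0.000519). A last G was lower at 9.63% and 9.68% after oxidation, against 11.2% and 11.1% before oxidation (log2 change -0.21, SE 0.01, adjusted p = 1.07e-05). The shares of a last A and a last T did not pass the test (adjusted p = 0.673 and 0.168). Sequences ending in CCA, the triplet added to tRNA 3' ends, were 0.733% and 0.684% after oxidation, against 0.643% and 0.643% before oxidation (adjusted p = 0.0639).

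Features combined with length separated further. Sequences of 33 to 40 nt without T at position 1 and with A at position 10 took 0.0711% and 0.0659% after oxidation, against 0.297% and 0.296% before oxidation (log2 change -2.12, SE 0.03, adjusted p = 1.05e-09). Those of 17 to 25 nt with the same bases took 0.3332% and 0.3689% after oxidation, against 0.613% and 0.589% before oxidation (log2 change -0.78, SE 0.14). This class includes 19 nt, where sequences without a first T, whatever base 10, took 0.0463% and 0.0622% after oxidation, against 0.605% and 0.575% before oxidation. At 17, 18, 20, 21 and 22 nt the mean RPM of such sequences was 1.12 to 1.66 times that before oxidation. Those of 29 to 32 nt with T at position 1 and no A at position 10 rose to 40.7% and 40.98% after oxidation, against 38.4% and 38.5% before oxidation (log2 change 0.09, SE 0.01). In each of the 4 length classes the share with neither T at position 1 nor any A at position 10 had a negative log2 change, from -0.69 for 33 to 40 nt to -0.05 for 26 to 28 nt, of which that of 26 to 28 nt did not pass the test.

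**Figure D5:**
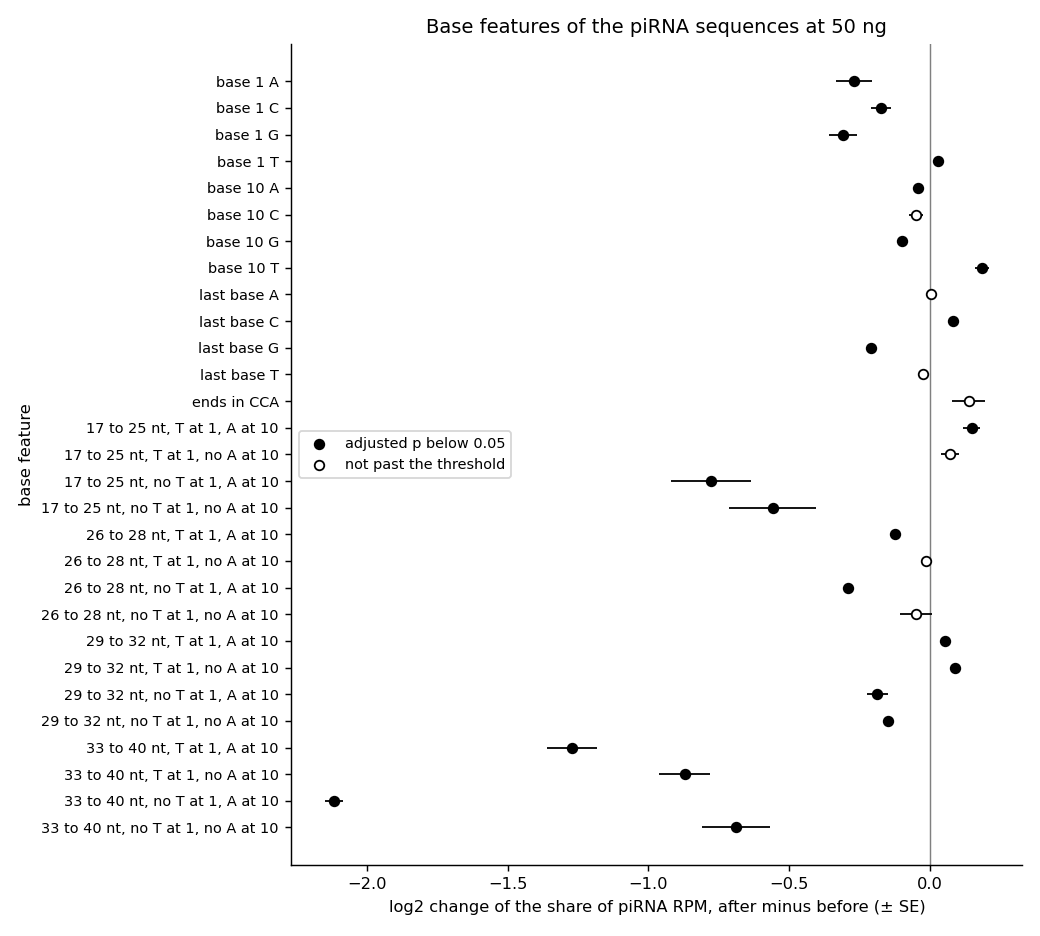
Log2 change of the share of piRNA RPM held by each base feature, after minus before oxidation, with the SE from limma. Filled symbols passed the test, and the class of 33 to 40 nt without T at position 1 and with A at position 10 lies farthest to the left at -2.12.

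The transcripts that piRNA-table sequences match changed in share too. Exact matches to GENCODE M21 were sorted into 7 classes, of which 4 took a lower share after oxidation (57.1%) and 1 a higher share (14.3%). These classes were chosen after the data were seen. Matches to annotated miRNA hairpins took 0.101% and 0.104% of piRNA RPM after oxidation, against 0.260% and 0.259% before oxidation (log2 change -1.34, SE 0.04, adjusted p = 4.15e-08). Sense matches to protein-coding transcripts took 3.18% and 3.23% after oxidation, against 3.84% and 3.78% before oxidation (log2 change -0.25, SE 0.02, adjusted p = 4.81e-06). Matches to long noncoding transcripts, the class that holds the annotated intergenic piRNA precursors, took 9.03% and 8.70% after oxidation, against 9.00% and 9.02% before oxidation (adjusted p = 0.204). Sequences with no transcript match were the class called higher, with 85.6% and 85.7% after oxidation, against 84.6% and 84.6% before oxidation.

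The change at 50 ng was then tested against the mean change at 10 and 100 ng. No miRNA differed (0 of 141, 0%) by limma, with 20 at an unadjusted p below 0.05. DESeq2 called 13 and edgeR 1, both with and without TMM. The smallest adjusted p was 0.0732, for miR-375-3p, a miRNA of neuroendocrine cells and gonads, and for the 3 identical entries miR-465a-3p, miR-465b-3p and miR-465c-3p. miR-375-3p had 1.40 and 4.90 RPM after oxidation, against 66.7 and 70.8 RPM before oxidation at 50 ng. No length differed either, with a smallest adjusted p of 0.243.

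Of the piRNA sequences, 18 of 22726 differed (0.0792%), with adjusted p-values between 0.0467 and 0.0472. All 18 had a higher change at 50 ng. For 14 of the 18 no read was found in either library after oxidation at 10 ng, while at 50 ng their levels were between 32.7 and 137 RPM after oxidation. The first, a 31-nt sequence, had 165 and 109 RPM after oxidation, against 128 and 125 RPM before oxidation at 50 ng, and a log2 fold change of 0.08 at 50 ng, -6.91 at 10 ng and 0.08 at 100 ng. The contrast therefore separates 10 ng from both other inputs for these sequences, and none of the tested sequences differed between 50 and 100 ng when the 10 ng libraries were left out.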

How the data were processed

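Small RNA of 17 to 40 nt from mouse testis was sequenced in 12 libraries, and the 4 at 50 ng are reported. The authors deposited miRNA and piRNA-sequence abundances as RPM and spike-in reads as counts, per the file headers. Bowtie, mm10 and hg38 are named in the submitters' processing notes. What hg38 was used for, the versions and the RPM denominator are not given in the sources used here. Deposited RPM values were turned back into reads from the size of 1 read: piRNA values were 100% whole within 0.01 read, and miRNA values came in whole reads or sixths, which a read shared between names would give.

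Features averaging 5 RPM or more across the 12 libraries were tested with limma 3.58.1 in R 4.3.3 on log2(RPM + 1), with 6 group means, a trend and Benjamini-Hochberg adjustment at 0.05. Shares by length, base and transcript match were tested with limma on log2 shares, without a trend. Class sums also had two-sided exact permutation tests. edgeR 4.0.16 and DESeq2 1.42.0 on the recovered reads, other pseudocounts (0.1 and 10), filters, scalings and left-out libraries were alternatives. The procedures were tested on simulated data. Sequences were matched without mismatch, on both strands, to GENCODE M21 transcripts on GRCm38, and no genome sequence was used, so sequences outside transcripts have no position.

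The miRNAs described were the 10 highest in each group, the 8 lowest and 8 highest log2 fold changes of those averaging 10 RPM or more, the 2 highest tested members of each list and the 3 smallest p-values for a difference from 10 and 100 ng. The piRNA sequences described were the 4 highest in each group and the 5 lowest and 5 highest called. Of the sequences chosen for printing, 1 is not reported here. The members, lists and tests were chosen with earlier results of these data known. All libraries carry the same date in the labels, so no batch could be separated.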

Additional observations from a re-analysis of the deposited data

Results flagged for a closer look

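The methylated spike-in sp3Me rose less at 50 ng than at the mean of the other inputs, with a difference of -1.12 in log2 change (limma adjusted p = 0.00129). Relative to all deposited reads, on the RPM scale, it had 1374 and 1380 after oxidation, against 477 and 457 before oxidation, at 50 ng. At 10 ng it had 3500 and 4348 after oxidation, against 231 and 266 before oxidation, and at 100 ng 1387 and 1247 after oxidation, against 531 and 471 before oxidation. With 10 ng the log2 change came to 3.97, with 50 ng to 1.56 and with 100 ng to 1.39.

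The share of sequences of 33 to 40 nt without T at position 1 and with A at position 10 fell less at 50 ng than at the mean of the other inputs, with a difference of 0.27 in log2 change (limma adjusted p = 0.00751). With 10 ng the log2 change came to -2.96, with 50 ng to -2.12 and with 100 ng to -1.81.

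For 18 piRNA sequences the change at 50 ng was higher than the mean of the changes at 10 and 100 ng. The count was 0 when the 10 ng libraries were left out.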

How the results depend on the processing

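The miRNAs called lower numbered 231 with no filter, 66 with a filter of 50 RPM, 52 after centring on library medians, 9 by edgeR with TMM and 0 by DESeq2, and 134 to 137 when 1 library was left out. Those called higher numbered 2, 0, 65, 11 and 22 in the same order, 0 scaled to methylated spike-ins, 2 without the 10 ng libraries, an alternative chosen after seeing the data, and 0 to 1 when 1 library was left out. Centring sets the middle of the miRNA table to 0 by construction. The factors of TMM and DESeq2 were also taken from the tested miRNAs alone, so they can absorb a shared fall, although the median with TMM was still -6.88. The log2 fold changes that turned positive were 5.48 for miR-3471, 4.28 for miR-3470a, 6.01 for miR-7210-3p, 4.03 for miR-3470b, 3.37 for miR-7217-3p, 2.69 for miR-186-5p, 2.04 for miR-375-3p and 0.50 for miR-541-5p after centring, 8.74 for miR-3471, 8.02 for miR-3470a, 9.34 for miR-7210-3p, 7.72 for miR-3470b, 6.56 for miR-7217-3p, 6.00 for miR-186-5p, 5.00 for miR-375-3p, 1.65 for miR-465a-3p, 1.65 for miR-465b-3p, 1.65 for miR-465c-3p, 1.23 for miR-34b-3p, 0.84 for miR-30c-5p, 1.49 for miR-183-5p, 1.54 for miR-27b-3p and 1.37 for miR-192-5p by edgeR with TMM, and 0.26 for miR-143-3p, 0.55 for miR-191-5p, 9.55 for miR-3471, 8.89 for miR-3470a, 10.09 for miR-7210-3p, 8.52 for miR-3470b, 7.42 for miR-7217-3p, 6.72 for miR-186-5p, 5.79 for miR-375-3p, 2.46 for miR-465a-3p, 2.46 for miR-465b-3p, 2.46 for miR-465c-3p, 2.04 for miR-34b-3p, 0.28 for miR-92a-3p, 1.65 for miR-30c-5p, 2.30 for miR-183-5p, 0.30 for miR-182-5p, 0.83 for miR-541-5p, 2.34 for miR-27b-3p, 0.28 for miR-21a-5p and 2.17 for miR-192-5p by DESeq2. Scaled to methylated spike-ins, values turned negative at -2.03 for miR-7214-5p, -1.78 for miR-5099, -2.24 for the Gm14244 piRNA, and -2.32 and -2.40 for piRNAs of 31 and 32 nt.

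The miRNAs with a different change at 50 ng numbered 5 and 9 with pseudocounts of 0.1 and 10, 1 with no filter, 3 with a filter of 50 RPM, 4 scaled to spike-ins, 1 and 1 by edgeR with and without TMM, 13 by DESeq2, 2 without the 10 ng libraries, and 0 to 11 with 1 library left out. For piRNA sequences the same counts were 2141, 0, 6, 61, 0, 2645, 1359, 3090, 0, and 0 to 4575, with 0 after centring. piRNA sequences called lower numbered 59 with no filter, 156 with 50 RPM, 16761 scaled to spike-ins, 476 by edgeR without TMM, 2129 by DESeq2, 1345 with only the 4 libraries at 50 ng, 2203 without the 10 ng libraries, and 254 to 2326 with 1 library left out. Those called higher numbered 146 with no filter, 391 with 50 RPM, 65 scaled to spike-ins, 504 by edgeR with TMM, 2519 with only the 4 libraries, 3868 without the 10 ng libraries, and 264 to 3835 with 1 library left out. The cause of these differences in number was not tested.

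When each distinct sequence was counted once, the log2 change of the share was -0.52 for 17 nt, -0.50 for 18 nt, -0.61 for 20 nt, -0.54 for 21 nt, -0.48 for 22 nt, -0.38 for 23 nt, 0.0397 for 26 nt, 0.0794 for 27 nt, 0.0563 for 28 nt, -0.0282 for a last A, -0.42 for 17 to 25 nt with T at position 1 and A at position 10, -0.33 for 17 to 25 nt with T at position 1 and no A at position 10, 0.0989 for 26 to 28 nt with T at position 1 and A at position 10 and 0.16 for 26 to 28 nt with T at position 1 and no A at position 10. With only sequences of at least 5 RPM it was 0.29 for 19 nt, 0.35 for 24 nt and 0.24 for 33 to 40 nt with neither base. Scaled to methylated spike-ins the sum changed by -11.69 for miRNAs and -2.53 for piRNAs, and the piRNA share of reads other than miRNA reads by -0.00854. On spike-ins 1, 2 and 3 alone the methylated to unmethylated ratio changed by 12.64, 10.65, 11.52. On spike-ins 1 and 3 alone piRNA reads changed by -3.62 and -1.37, and miRNA reads by -12.79 and -10.53.

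The replicate numbers did not pair the libraries: at 50 ng the deviations of same-numbered libraries correlated at r = 0.0016 for miRNAs and -0.013 for piRNA sequences. With a replicate block 135 miRNAs were lower and 1 higher, 641 piRNA sequences lower and 1043 higher, and 0 piRNA sequences had a different change at 50 ng. With 218 and 305 RPM of miRNAs left after oxidation, levels of single miRNAs rest on few reads, and the 75 tested miRNAs with no read allow only bounds.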

Other observations

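Values of 3 long noncoding transcripts that hold many piRNA sequences stand beside 3.44% lower and 5.77% higher over all tested sequences. The transcripts were picked after their values were seen, and differences between them were not tested. Gm21269 on chromosome 7 held 322 tested sequences, of which 14 were lower and 20 higher, and the tested sequences summed to 13063 RPM after oxidation and 11471 RPM before oxidation. 4933440M02Rik held 89, of which 0 were lower and 9 higher, with 1633 RPM after oxidation and 1062 RPM before oxidation. Gm10505 on chromosome 17 held 97, of which 3 were lower and 0 higher, with 1501 RPM after oxidation and 2137 RPM before oxidation.

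Among sequences with at least 5 RPM before oxidation, the share with no read in either library after oxidation was 13.6% under 26 nt, 1.97% at 26 to 28 nt, 2.28% at 29 to 32 nt and 21.02% above 32 nt. Sequences in both libraries after oxidation and in none before it numbered 8396 and held 1.84% of piRNA RPM after oxidation. Those in both libraries before oxidation and in none after it numbered 50310 and held 6.98% of piRNA RPM before oxidation.

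At 17 nt, sequences ending in CCA held 27.3% and 23.1% of RPM after oxidation, against 15.2% and 16.9% before oxidation. Of 35 tested sequences under 26 nt that end in CCA, 14 were called higher (40.0%), beside 11.8% of the other sequences under 26 nt and 5.77% of all sequences. These groups were not matched for length. Whatever their ending, 38.2% of tested 17-nt sequences were called higher, against 5.85% of the 1248 tested at 23 to 25 nt. Sequences low before oxidation can reach the 5 RPM filter through libraries after it, so the filter favours higher calls in such groups. Whether a CCA end matters beyond length was not tested.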
